A study of Mus musculus with 36 samples.

Results

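The axon guidance ligands and receptors were followed across unmyelinated optic nerve (UON), myelinated optic nerve (MON) and retina of C57BL/6 mice. Members were all gene symbols of the semaphorin (Sema), plexin (Plxn), neuropilin (Nrp), ephrin (Efna, Efnb), Eph receptor (Epha, Ephb), Slit, Robo, netrin (Ntn) and Unc5 families, together with Dcc, and 69 of the 55487 genes in the count table matched. They comprised 35 ligands and 34 receptors: 20 semaphorins, 9 plexins, 2 neuropilins, 5 ephrin-A and 3 ephrin-B ligands, 9 EphA and 5 EphB receptors, 3 Slits, 4 Robo receptors, 4 netrins, 4 Unc5 receptors and Dcc. RNA was sequenced from 36 libraries, 12 of each tissue. Each tissue was taken from naïve mice (0D), from mice 3 days (3D) or 2 weeks (2W) after optic nerve (ON) crush, and from mice 3 days, 2 weeks or 6 weeks (6W) after microbeads were injected into the anterior chamber of the eye to raise its pressure, labelled glaucoma. Animals were 2 to 4 months old, naïve mice had received neither injury in either eye. Every condition had 1 female and 1 male library of each tissue, and each library pooled the RNA of 2 mice. Each animal gave all 3 tissues, so that 12 pools each gave a matched UON, MON and retina library.

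Guidance ligands are secreted or membrane-bound proteins that attract or repel growing axons. Class 3 semaphorins bind neuropilins, which signal through A-type plexins, whereas most other semaphorins bind plexins directly. Ephrins are tethered to the membrane and signal to Eph receptor tyrosine kinases on the neighbouring cell, Slits act through Robo receptors, and netrins attract axons through Dcc and repel them through Unc5 receptors. In the visual system these families guide retinal ganglion cell (RGC) axons along the retina, through the ON head and across the chiasm, and in the adult several are made by astrocytes, oligodendrocytes and vessels.

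Upstream sequences are shown for 4 members on which the results below turn, Sema4c because its summed counts came mostly from another start site in retina than in nerve, Ephb1 and Unc5b because they differed both between nerve regions and after crush, and Slit2 as the Slit of highest level. Each is the 250 bases before a RefSeq start site (GRCm38.p6), written 5′ to 3′ on the strand of the gene. Capitals mark matches on either strand. The letters searched for the TATA box were TATAAA. Those of the CCAAT box were the letters of its name, those of the GC box were GGGCGG, and those of the E box were CAGCTG. None of these motifs contains another.
Sema4c, start at 36557557, chr1:36557558-36557807, minus strand: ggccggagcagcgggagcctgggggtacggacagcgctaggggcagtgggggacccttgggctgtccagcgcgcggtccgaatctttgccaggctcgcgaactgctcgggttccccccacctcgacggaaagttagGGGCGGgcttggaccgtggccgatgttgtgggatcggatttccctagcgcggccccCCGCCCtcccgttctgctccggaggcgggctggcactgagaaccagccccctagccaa
Sema4c, start at 36558381, chr1:36558382-36558631, minus strand: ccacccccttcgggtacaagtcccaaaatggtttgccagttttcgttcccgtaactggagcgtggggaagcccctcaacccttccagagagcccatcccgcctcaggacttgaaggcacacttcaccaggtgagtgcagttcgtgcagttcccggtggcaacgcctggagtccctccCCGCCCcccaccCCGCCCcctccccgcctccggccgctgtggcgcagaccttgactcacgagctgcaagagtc
Ephb1, chr9:102354694-102354943, minus strand: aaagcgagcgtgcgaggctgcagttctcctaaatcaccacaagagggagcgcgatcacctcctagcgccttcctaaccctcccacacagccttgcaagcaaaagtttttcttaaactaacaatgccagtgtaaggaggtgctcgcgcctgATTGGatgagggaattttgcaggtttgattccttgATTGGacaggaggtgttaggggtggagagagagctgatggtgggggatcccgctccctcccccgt
Unc5b, chr10:60831582-60831831, minus strand: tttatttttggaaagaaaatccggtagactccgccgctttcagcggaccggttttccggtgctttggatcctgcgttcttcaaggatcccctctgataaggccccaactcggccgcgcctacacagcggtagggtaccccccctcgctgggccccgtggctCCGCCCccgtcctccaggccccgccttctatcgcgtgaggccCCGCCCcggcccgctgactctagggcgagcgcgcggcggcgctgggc
Slit2, chr5:47982905-47983154, plus strand: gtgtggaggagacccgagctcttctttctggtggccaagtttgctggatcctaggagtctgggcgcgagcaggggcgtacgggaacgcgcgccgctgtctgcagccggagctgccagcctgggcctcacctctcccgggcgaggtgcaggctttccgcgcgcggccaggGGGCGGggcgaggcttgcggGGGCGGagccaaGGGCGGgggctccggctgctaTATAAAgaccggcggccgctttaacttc

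Both Sema4c windows held 2 GC boxes, the Ephb1 window held 2 CCAAT boxes and no GC box, the Unc5b window held 2 GC boxes, and the Slit2 window held 3 GC boxes and a TATA box. RefSeq windows were matched for 59 of the 69 members, 75 windows in all. A GC box stood in 53 of those 75, against 32.7% of 32851 windows over all genes, a CCAAT box in 20 (33.8% of all windows), an E box in 12 (13%) and a TATA box in 2 (12.4%). These are matches of letters only, and the guidance windows include alternative starts of the same gene.

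The estimated counts summed to between 16.2 and 78.1 M per library. Among lists of cell type markers, those of oligodendrocytes and photoreceptors followed the tissue labels. The 10 oligodendrocyte and myelin markers summed to between 47800 and 169000 CPM (counts scaled to library size) in MON. Their sums were 3680 to 45100 in UON and 78.3 to 144 in retina. The 10 photoreceptor markers summed to between 52800 and 65600 in retina and to at most 347 in either nerve region. The 6 Müller glia markers did not follow the labels. They summed to 2080 to 4220 CPM in retina, 12400 to 39000 in UON and 6130 to 25800 in MON. Some nerve libraries stood apart. MON crush 3D male had the lowest astrocyte sum of the MON libraries (7620 CPM, the next being 13600). UON crush 2W male had the lowest oligodendrocyte sum (3680 CPM) and the highest sums of pigment cell (60.7) and skeletal muscle (35) markers among UON libraries, and UON glaucoma 3D female had the highest oligodendrocyte sum (45100). UON glaucoma 2W male had the highest photoreceptor sum of the UON libraries (347 CPM, the next being 108) and the fewest counts of all libraries (16.2 M).

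Levels were compared between members per length, in FPKM, fragments scaled to gene length and library size. In naïve UON, 48 of 69 members had at least 1 FPKM in both libraries, in naïve MON 34 and in naïve retina 48, while 13, 11 and 2 members respectively reached 10 FPKM. Over 12 libraries, the member of highest median level in UON was Sema3b, a secreted class 3 semaphorin (median 293 FPKM), followed by Slit2, a secreted repellent (47.8), Plxnb2, a receptor of class 4 semaphorins (44.6), Sema4d, a transmembrane semaphorin made by oligodendrocytes (32.1), and Efna1, an ephrin-A ligand (27.5). In MON the order began with Sema4d (186) and Sema3b (122), then Efnb3, an ephrin-B ligand of myelinating cells (78.3), Sema6d, a transmembrane semaphorin (40.3), and Plxnb2 (31.1). Retina was led by Slit2 (21.1) and Sema3f, a class 3 semaphorin that binds Nrp2 (19.7), then Plxnb2 (10.2), Plxna2 (9.93) and Epha7 (8.19), so that no retinal member came near the leading nerve members. The 10 members of highest level in each tissue were the same when ranked by TPM, which is scaled to length first. Within a library TPM orders genes as FPKM does, so this sameness was largely fixed in advance and tests nothing. In naïve libraries Sema3b was 297 ± 3.6 FPKM in UON and 118 ± 34.8 in MON (SD, n = 2), Sema4d 30.5 ± 3.17 and 250 ± 1.32, and Efnb3 11.5 ± 2.43 and 132 ± 0.315. In naïve UON Slit2 had 63.3 and 48.3 FPKM in the female and male libraries, both above the 46.2 and 43 of Plxnb2. Efna1 (26.4 ± 1.19) and Nrp1, the neuropilin that binds Sema3a (25.9 ± 1.39), differed there by less than their spread.

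**Figure D1:**
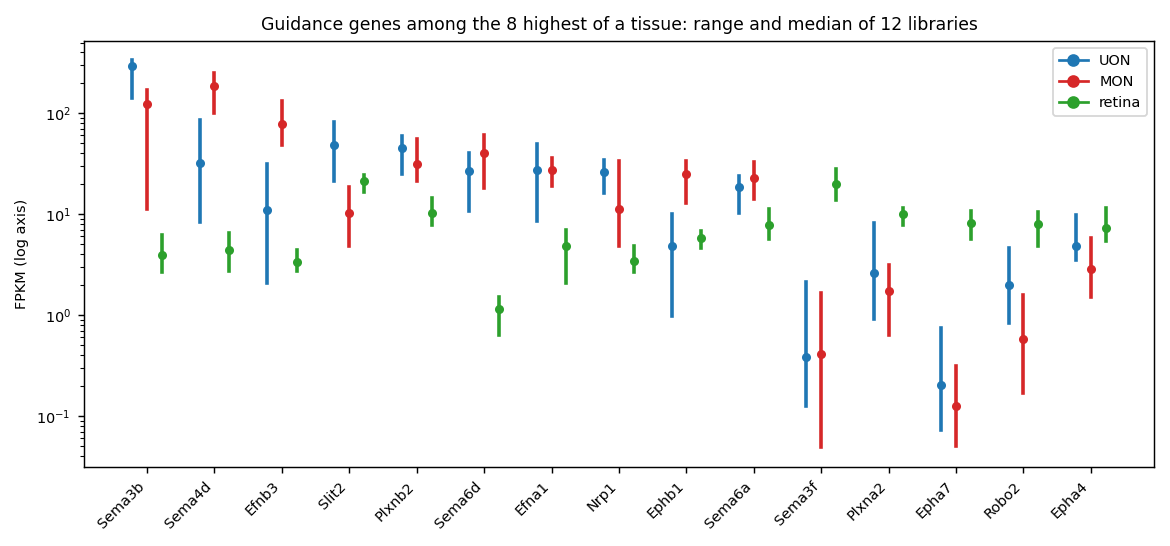
FPKM on a log axis for the members that are among the 8 of highest median in a tissue. Points are medians and bars the range of 12 libraries of UON (blue), MON (red) and retina (green), and Sema3b leads in UON (median 293), Sema4d in MON (186) and Slit2 in retina (21.1).

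**Figure D2:**
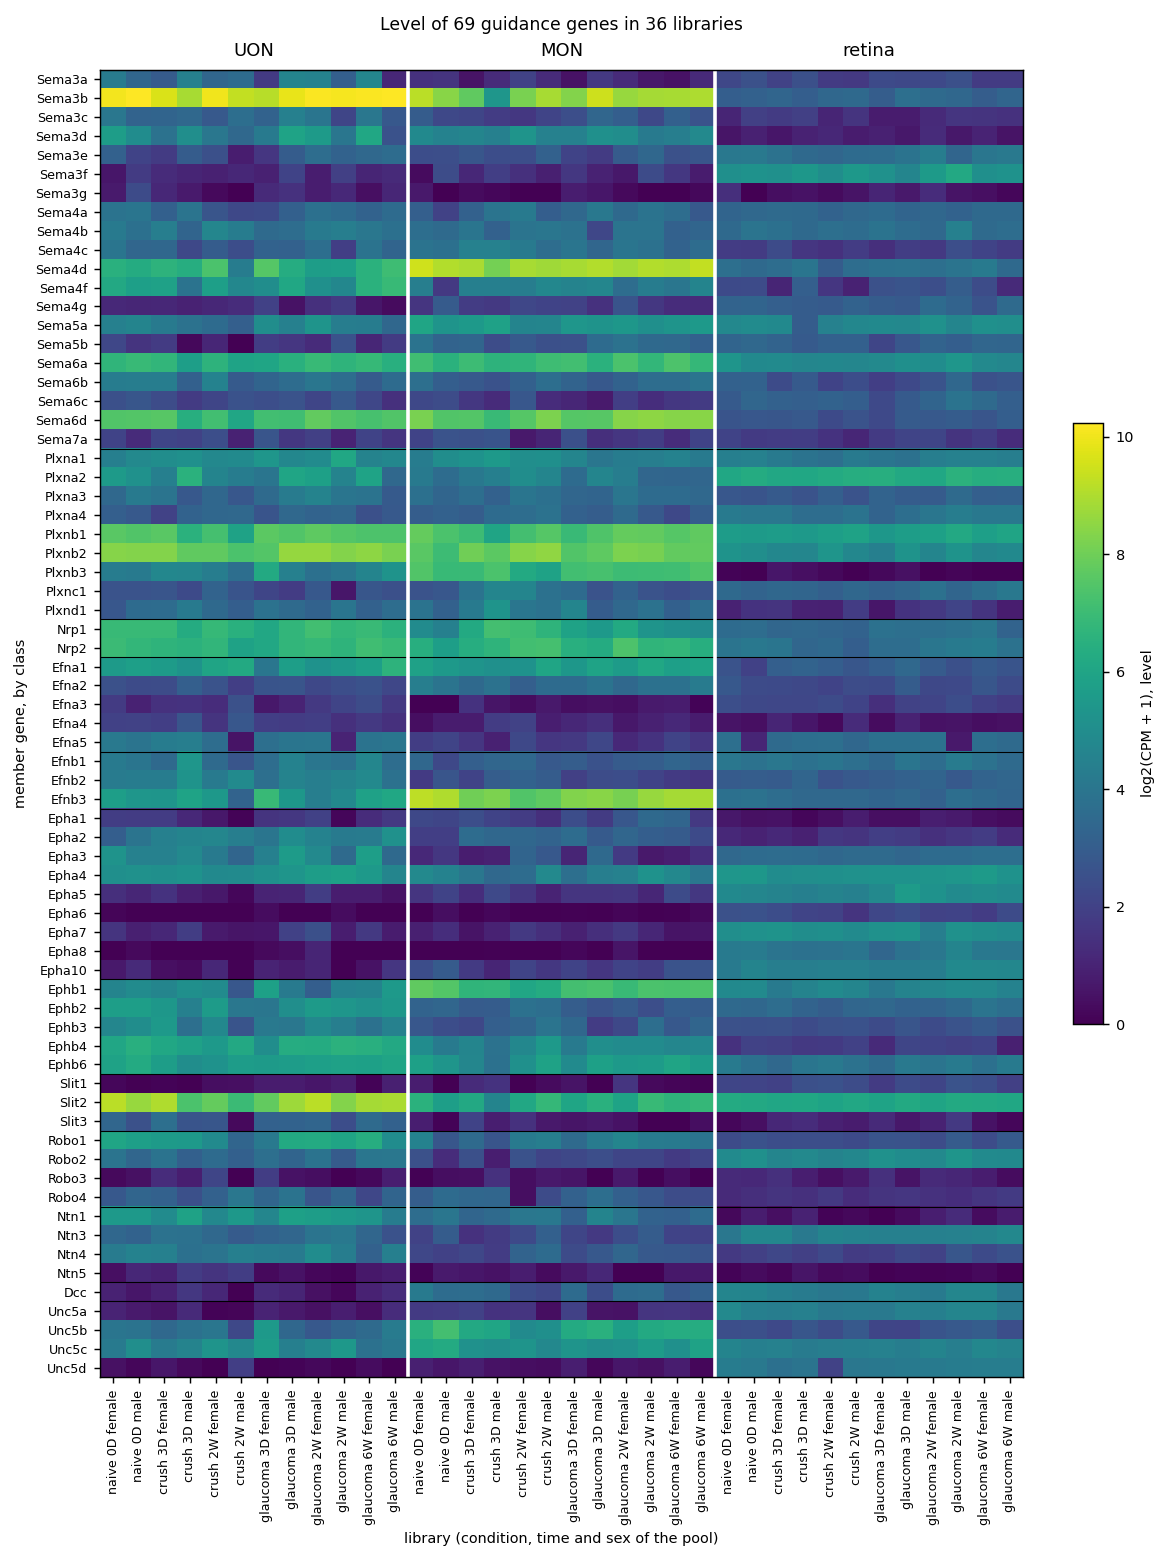
Level of each of the 69 members, as log2(CPM + 1), in each of the 36 libraries, with tissues side by side and members in rows by class. Sema3b and Slit2 are brightest in UON and Sema4d and Efnb3 in MON, and single dark cells such as Efna5 in UON crush 2W male are the low values described at the end.

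The first comparison asked how guidance genes differ between the unmyelinated and the myelinated nerve. A gene was called when its Benjamini-Hochberg adjusted p over all genes was under 0.05 in edgeR's quasi-likelihood test and its log2 fold change was beyond 1, the thresholds of the study. Over the 12 pools, 38 of 69 members were called: 23 were higher in UON, a direction in which 6.73% of 21996 genes were called, and 15 were higher in MON, against 9.88% of all genes. The median log2 difference (UON less MON) was 0.26 over members and -0.04 over all genes. In the 6 naïve libraries alone, 27 members were called, 16 higher in UON (4.83% of 23685 genes) and 11 higher in MON (4.8%), with a median of 0.38 over members and -0.06 over all genes. Of those 27, 23 (85.2%) were called in the same direction in the 10 injured pools, which share no library with the naïve test, against 1408 of 2281 genes (61.7%), and all 27 kept their sign. In bulk tissue, fewer cells of a type and less RNA per cell cannot be told apart.

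Receptors and ligands of higher level in MON were led by Dcc, the attractive netrin receptor. Dcc had 0.985 and 0.525 CPM in the naïve female and male UON libraries and 17.4 and 11.2 in MON. Over all conditions UON libraries lay between 0 and 2.16 CPM and MON libraries between 3.52 and 17.4, without overlap (log2 difference -3.35, SE 0.38, edgeR adjusted p = 1.05e-07). Efnb3, the ephrin-B ligand that binds EphB receptors and Epha4, had 52.8 and 41.2 CPM in naïve UON and 588 and 517 in naïve MON. It too did not overlap between the regions, at 8.6 to 120 CPM in UON and 175 to 588 in MON (8.01-fold lower in UON, SE 0.24 on the log2 scale, edgeR adjusted p = 2.20e-10). Plxnb3, the receptor of Sema5a, had 18.9 and 16.9 CPM in naïve UON and 177 and 118 in naïve MON (-2.53 over 12 pools, SE 0.31, edgeR adjusted p = 3.61e-07). Its highest UON library, glaucoma 3D female at 74.6 CPM, exceeded its lowest MON library at 58.3.

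Sema4d, whose receptor is Plxnb1, had 90.5 and 77.6 CPM in naïve UON and 715 and 538 in naïve MON, and did not overlap over all conditions (18.8 to 187 against 273 to 715 CPM). Unc5b, a netrin receptor of repulsion, had 14.7 and 14 against 90.2 and 143. Ephb1, the EphB receptor that turns RGC axons aside at the chiasm, had 23.7 and 29.5 against 212 and 179. All of these 6 members were lower in UON than in the matched MON library in 12 of 12 pools. They were picked for large differences in these same pools, which makes a like sign in each pool likely. Here and below, the share of all genes with such counts of pools, or without overlap between tissues, was not counted. Unc5b and Ephb1 had log2 differences of -2.50 (SE 0.27, edgeR adjusted p = 4.68e-08) and -2.45 (SE 0.24, edgeR adjusted p = 9.93e-09). In the same comparison all 10 oligodendrocyte markers and 6 of 8 precursor markers were called higher in MON, and in UON glaucoma 3D female, the UON library with the highest oligodendrocyte sum, Efnb3 (120 CPM), Plxnb3 (74.6), Sema4d (187), Unc5b (44.2) and Ephb1 (55.7) were each at their UON maximum. In UON crush 2W male, the UON library with the lowest sum, all 5 were at their UON minimum. Dcc had no count in UON crush 2W male, but its UON maximum of 2.16 CPM was in crush 3D male, with 1.41 in glaucoma 3D female. The part of oligodendrocyte content in these differences was not tested.

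Members of higher level in UON included Epha3, an EphA receptor, with 37.7 and 21.7 CPM in naïve UON against 1.24 and 2.16 in naïve MON. Over all conditions it lay between 9.18 and 51.8 in UON (median 21.5) and 0.635 and 10.4 in MON (median 1.39), and it was higher in UON in 12 of 12 pools (log2 difference 3.39, SE 0.42, edgeR adjusted p = 3.89e-07). Its class was divided over the 12 pools. Of 9 EphA receptors, 2 were called higher in UON (6.73% of all genes), 3 higher in MON (9.88%) and 4 were not called. Sema3a, the repellent that binds Nrp1, had 18.2 and 9.41 CPM in naïve UON and 1.78 and 1.92 in naïve MON. Its UON values ran from 1.19 to 25.3 (median 10.1), overlapping MON at 0.403 to 3.02 (median 1.4), and 11 of 12 pools were higher in UON (3.16, SE 0.40, edgeR adjusted p = 4.73e-07). Efnb2, an ephrin-B ligand of vessels and astrocytes, had 18.2 and 18.8 against 2.32 and 5.53 CPM and did not overlap between the regions (12.5 to 37 against 2.01 to 8.44 CPM, 2.34, SE 0.21, edgeR adjusted p = 1.76e-09).

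Of the Slits and Robo receptors, 4 of 7 were called higher in UON and none higher in MON over the 12 pools, beside 6.73% and 9.88% of all genes. Slit2 had 576 and 406 CPM in naïve UON and 91.1 and 51.9 in naïve MON, and its UON libraries (124 to 584 CPM) all lay above its MON libraries (23.7 to 119 CPM), 4.6-fold apart over the 12 pools (SE 0.21 on the log2 scale, edgeR adjusted p = 4.17e-09). Slit3, at a far lower level, ranged from 0.213 to 12.2 CPM in UON (median 8.02) and from 0 to 3.21 in MON (median 0.558), and the lowest UON value was that of crush 2W male (3.69, SE 0.68, edgeR adjusted p = 1.14e-04). Slit3 was not called in the naïve libraries, where it had 9.52 and 4.78 CPM in UON and 0.827 and 0.0601 in MON (edgeR adjusted p = 0.065). Slit1 had at most 2 CPM in either region and was not called. Of the 4 Robo receptors, Robo1 (1.62, SE 0.27) and Robo2 (1.78, SE 0.20) were higher in UON over the 12 pools, while Robo3 and Robo4 were not called.

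Over the 12 pools, 3 of the 5 ephrin-A ligands were called higher in UON and 1 higher in MON, beside 6.73% and 9.88% of all genes. In the naïve libraries 1 was called higher in UON, 1 higher in MON and 3 were not called. Efna3 (0 counts in both naïve MON libraries; 2.42 and 0.979 CPM in naïve UON) was at least 14.9-fold higher in naïve UON when each MON library was set at 3 counts, and over the 12 pools, at 0.575 to 4.89 CPM in UON and 0 to 1.81 in MON, the log2 difference was 2.44 (SE 0.49, edgeR adjusted p = 3.15e-04). With the bound in place of its fitted value the naïve median over members stayed at 0.38. Efna3 and Efna4 share 14.1% and 10.5% of their exon bases with antisense genes, and the strand of the libraries is not given in the sources used here, so those reads cannot be told apart. Efna4 (1.33) and Efna5 (2.13) were also higher in UON, Efna2 was higher in MON (-1.47) and Efna1 did not differ by a call (-0.03, SE 0.19). Of the EphB receptors, Ephb2 (4.59-fold, SE 0.20 on the log2 scale), Ephb3 (1.55 on the log2 scale, SE 0.29) and Ephb4, the receptor of Efnb2 in veins (1.38, SE 0.15) were higher in UON, Ephb1 was higher in MON, and Ephb6, a kinase-dead member, was not called.

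Among netrins 3 of 4 were called higher in UON over the 12 pools (6.73% of all genes), while Dcc and 2 of 4 Unc5 receptors were called higher in MON (9.88%). Ntn1, the founding netrin, Ntn3 and Ntn4, a basement membrane netrin, were higher in UON by 1.62 (SE 0.31), 1.40 (SE 0.21) and 1.75 (SE 0.21) on the log2 scale over the 12 pools, and Ntn4 was also called in naïve libraries, at 18.2 and 22.6 CPM in UON and 3.55 and 3 in MON (2.58, SE 0.39, edgeR adjusted p = 0.00855). Unc5a, Unc5b and Dcc were higher in MON, and Unc5c was called there only in the naïve libraries (-1.61, SE 0.29), although over the 12 pools it also lay lower in UON (-0.71, edgeR adjusted p = 0.00342) without reaching the fold threshold. Among the 20 semaphorins, Sema3a, Sema3b, Sema3c, Sema3g and Sema4f were called higher in UON over the 12 pools and Sema4d, Sema4g, Sema5a and Sema5b higher in MON. Sema3g rested on few counts, with 0 to 4.06 CPM in UON, 0 to 0.774 in MON and 5 MON libraries at 0 (2.72, SE 0.82). Sema4f was called in both tests and had 71.2 and 53.3 CPM in naïve UON against 19.6 and 2.28 in naïve MON, where the male library was the lowest of all 12 MON libraries. Of 9 plexins, Plxna2 was higher in UON (1.08) and Plxnb3 and Plxnc1 higher in MON, and the A-type co-receptors Plxna1, Plxna3 and Plxna4 were not called. Nrp1 was called in naïve libraries (2.21, SE 0.23, edgeR adjusted p = 0.00248) and not over the 12 pools (0.85, SE 0.25, higher in UON in 9 of 12 pools).

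Fibroblast markers also followed this contrast, 9 of 10 being called higher in UON over the 12 pools (summed range 1790 to 6110 CPM in UON and 461 to 1710 in MON), and their part in the UON-high members was not tested. Leaving out the pools crush 2W male and glaucoma 3D female, chosen after the data were seen, gave 39 called members in place of 38.

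**Figure D3:**
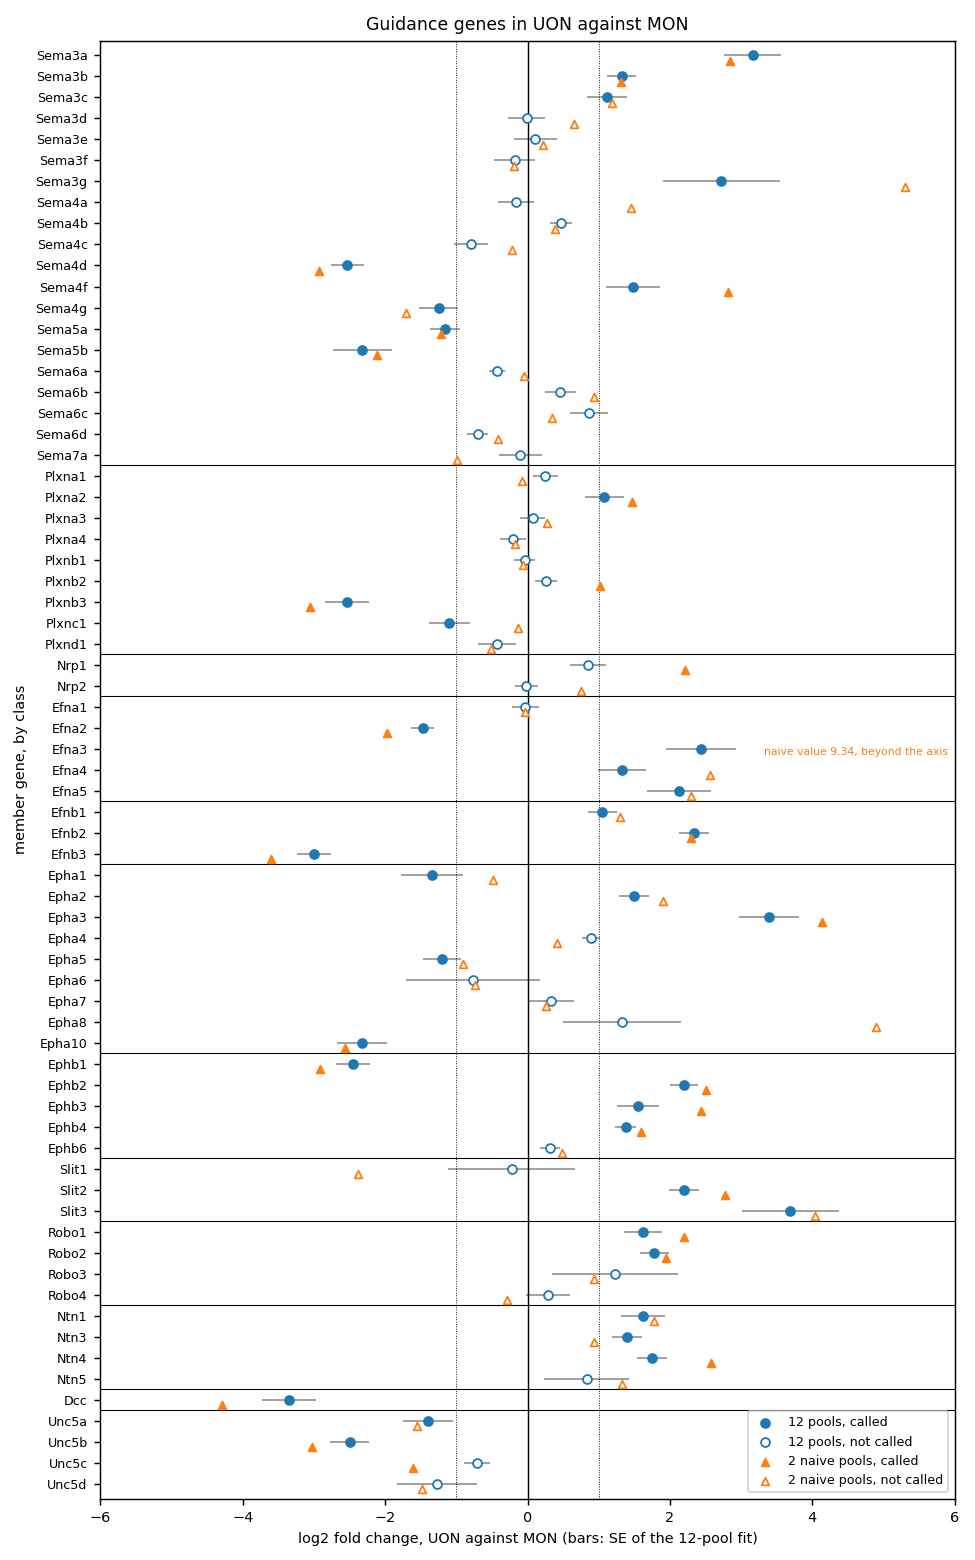
Log2 fold change, UON against MON, for the 69 members by class. Circles are the 12-pool fit with its SE as bars, triangles the 2 naïve pools, and filled symbols are called. Dcc (-3.35), Efnb3, Plxnb3 and Sema4d lie farthest to the MON side and Slit3 (3.69) and Epha3 (3.39) farthest to the UON side in the 12-pool fit.

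Against retina, most guidance genes differed. Over the 12 pools 54 members were called between UON and retina, 35 higher in UON (25.3% of all genes were called in that direction) and 19 higher in retina (28.1%), with a median of 1.01 over members and -0.14 over all genes. Between MON and retina 50 were called, 28 higher in MON (25.3%) and 22 higher in retina (25.1%). In naïve libraries the counts were 33 higher in UON (18.2%) and 15 higher in retina (13.5%), and 23 higher in MON (16.7%) and 13 higher in retina (10.9%). Of these naïve calls, 46 of 48 and 35 of 36 were called again in the 10 injured pools, against 91.3% and 90.8% of all called genes.

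Of 9 EphA receptors, 5 were called lower in UON and 6 lower in MON than in retina over the 12 pools, beside 28.1% and 25.1% of all genes. Epha8 lay between 9.47 and 23.6 CPM in retina (median 15.3), while 7 of 12 UON and 9 of 12 MON libraries had no count. In naïve libraries retina was at least 159-fold above MON, with 3 counts set for each MON library. Epha6 lay between 1.91 and 4.95 CPM in retina and at most 0.3 in either nerve region, and Epha7 between 20.1 and 37.7 CPM in retina and at most 4.62 in nerve. Epha5 and Epha10 had 20.6 to 47.8 and 17.7 to 28 CPM in retina and at most 4.07 and 6.61 in nerve. These 5 receptors of the ephrin-A ligands were called higher in retina against both nerve regions. Epha1 and Epha2 were instead higher in both nerve regions, and Epha3 was higher than retina in UON (1.01, SE 0.37) and lower in MON (-2.37, SE 0.41).

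Unc5d, a receptor of Flrt proteins, lay between 3.09 and 19.5 CPM in retina (median 17) and at most 2.74 in nerve, and Unc5a between 16.2 and 27.5 in retina against at most 2.92. Sema3f was at 24.2 to 70.6 CPM in retina (median 35.6) and at most 4.15 in nerve, the largest log2 difference in favour of retina among the 20 semaphorins in both nerve comparisons (-4.93 in UON and -4.76 in MON). Dcc was highest in retina as well, at 15.7 to 24.9 CPM. None of these 4 members overlapped between retina and UON. They were named after their values were seen, and the share of all genes without such overlap was not counted.

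Nerve-high members were led by Plxnb3, with at most 0.544 CPM in retina, where 5 of 12 libraries had no count, against medians of 20.1 CPM in UON and 135 in MON. Sema3b, Sema3d, a further class 3 semaphorin, Sema6d and Ntn1 were above retina in 12 of 12 pools in both nerve regions. Sema3b lay between 7.07 and 12.2 CPM in retina, 475 and 1210 in UON and 40.1 and 696 in MON. Sema6d lay between 3.83 and 7.41 CPM in retina, 64.9 and 222 in UON and 121 and 359 in MON, and Ntn1 at most 1.37 in retina, with a median of 43.5 in UON and 11.3 in MON. Sema3d lay between 0.472 and 1.41 CPM in retina, 5.05 and 68.4 in UON and 17 and 38.4 in MON. Sema4d and Efnb3 had 6.87 to 17.2 and 8.08 to 13.4 CPM in retina, all below their MON libraries. Ephb4, at 0.856 to 3.37 CPM in retina, 31.6 to 93.8 in UON and 13.4 to 45.3 in MON, was 4.76 (SE 0.18) and 3.37 (SE 0.17) above retina on the log2 scale in UON and MON. Both neuropilins were likewise higher in nerve, Nrp1 by 3.18 and 2.34 and Nrp2 by 2.90 and 2.91. In the retina comparisons another scaling of the libraries moved the median of all genes by -0.12 on the log2 scale in UON and -0.10 in MON.

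Transcript estimates showed where nerve and retina drew on different forms of the same gene. The assignment of reads to transcripts is itself an estimate, and shares were taken only in libraries with at least 100 counts of the gene. For Sema4c, 92.3% of retinal counts came from transcripts that start within 50 bases of the downstream start site at 36557557, against 16.8% in UON and 13.4% in MON, with the libraries of a tissue summed, while the upstream start at 36558381 gave 3.78% in retina, 81.5% in UON and 84.7% in MON. Single libraries overlapped: Sema4c-202, of the downstream start, held 0 to 92.5% of Sema4c counts in 10 UON libraries (median 0.709%), 0 to 98.9% in 12 MON libraries (median 0.926%) and 70.3 to 100% in 9 retina libraries. Sema4d-204 held 26.6 to 57.7% of Sema4d counts in UON, 34.6 to 58.6% in MON and 9.4 to 24.1% in retina, and Nrp1-201 held 86.3 to 98% in UON, 84.8 to 94.3% in MON and 61.1 to 83% in retina, each without overlap between nerve and retina. Sema6d-206 held 10.7 to 34.3% in UON and 15 to 46.9% in MON and had no count in 11 retina libraries. For Plxnb3, the protein-coding Plxnb3-201 held a median of 6.14% in UON (0 to 99.3%) and 60.7% in MON (33.3 to 93%). Plxnb3-204, a retained-intron transcript, held a median of 44.9% in UON (0 to 100%) and 19.5% in MON (0 to 43.3%). The summed Plxnb3 counts are therefore not all of coding RNA. Between UON and MON, the shares of Sema3f-201 (53.8 to 58.7% in 2 UON libraries and 72.6 to 92.5% in 3 MON libraries) did not overlap, nor did those of 2 transcripts each of Epha5 and Epha7 that rest on a single library in 1 of the regions.

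The next comparison asked what crush did to these genes in MON. At 3D, 66 members passed the filter on low counts and 2 were called, both higher after crush (3.61% of 19988 genes were called higher and 0.655% lower). At 2W, 4 were called, 1 higher (2.13% of all genes) and 3 lower (0.595%). Called members were therefore no more frequent than called genes overall in the higher direction at either time, and at 2W the lower direction held 3 of 66. The median log2 change over members was -0.06 at 3D and 0.25 at 2W, against -0.00 and 0.05 over all genes. Both times were set against the same 2 naïve libraries.

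Nrp1 (chr8:128358604-128503363, plus strand), the receptor of Sema3a and a co-receptor of vascular endothelial growth factor, had 29.4 and 21 CPM in the naïve female and male MON libraries. It had 73.1 and 144 CPM at crush 3D and 132 and 99.1 at crush 2W, so that all 4 crush libraries lay above both naïve ones. The 144 CPM came from crush 3D male, the MON library with the lowest astrocyte sum. The log2 change was 2.18 at 3D (SE 0.40, edgeR adjusted p = 0.0293) and 2.23 at 2W (SE 0.39, edgeR adjusted p = 0.0377). The 3D change was 1.41 without the male crush library (adjusted p = 0.0659), and between 1.80 and 2.53 without one or the other naïve library (adjusted p = 0.206 and 0.113). Epha2 (chr4:141301240-141329384, plus strand), a receptor of Efna1, had 2.78 and 2.76 CPM in naïve MON, 11.2 and 9.71 at 3D and 9.64 and 8.52 at 2W. Again no crush library overlapped the naïve ones, and the change was 1.99 at 3D (SE 0.42, edgeR adjusted p = 0.0456, but 0.0792 to 0.219 when any 1 of the 4 naïve and crush 3D libraries was left out and 0.0527 with DESeq2's scaling) and 1.74 at 2W (SE 0.42, adjusted p = 0.0797, not called).

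The 3 members that fell at 2W were among those of higher level in MON than in UON. Efnb3 (chr11:69554092-69560205, minus strand) had 588 and 517 CPM in naïve MON, 259 and 301 at 3D and 175 and 210 at 2W. The 2W change was -1.49 (SE 0.29, edgeR adjusted p = 0.0471). Ephb1 (chr9:101922128-102354693, minus strand), its receptor, had 212 and 179, then 102 and 106, then 64.9 and 76.8 CPM (-1.43 at 2W, SE 0.27, edgeR adjusted p = 0.0417). Unc5b (chr10:60762593-60831581, minus strand) had 90.2 and 143, then 71.1 and 63.9, then 28.5 and 33.5 CPM (-1.86 at 2W, SE 0.31, edgeR adjusted p = 0.0347). For each of the 3, both 2W libraries lay below both 3D libraries, and these below both naïve libraries. Across the same libraries the summed oligodendrocyte markers went from 169000 and 126000 CPM (naïve) to 88900 and 73900 (3D) and 47800 and 61000 (2W), the RGC list from 186 and 123 to 112 and 63.8 and then 27.9 and 23.1, and the microglia list from 1360 and 1310 to 2390 and 2630 and then 5740 and 3500. Proliferation markers summed to 11.7 and 11.4 CPM in naïve MON, 495 and 596 at 3D and 93.2 and 43.4 at 2W. Their part in the changes of these 5 members was not tested. None of the 4 calls at 2W was left when either naïve library was left out.

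Members that missed the call at 2W by the adjusted p included Dcc (-1.79, SE 0.39, edgeR adjusted p = 0.0593), with 17.4 and 11.2 CPM in naïve MON and 4.41 and 3.52 at 2W, Plxnb2 (1.21, adjusted p = 0.0889), Plxnc1, the receptor of Sema7a (1.80, adjusted p = 0.0992), and Nrp2 (1.14, adjusted p = 0.105). Sema3b, the member of highest level in UON, had 578 and 339 CPM in naïve MON. It had 211 and 40.1 at 3D and 292 and 473 at 2W, with no call at either time (-1.97 at 3D, SE 0.66, edgeR adjusted p = 0.148). The 40.1 CPM came from crush 3D male, the MON library with the lowest astrocyte sum. DESeq2, the tool of the study, called 7 members at 3D and 15 at 2W, these 5 included, against 6.12% and 4.43% of all genes. Here and below, DESeq2 shares are over every gene with any count, without the filter on low counts. That base is larger than that of the edgeR shares, and 66 of the 69 members passed the filter here. A member share above a DESeq2 share of all genes is therefore not a result about the members.

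**Figure D4:**
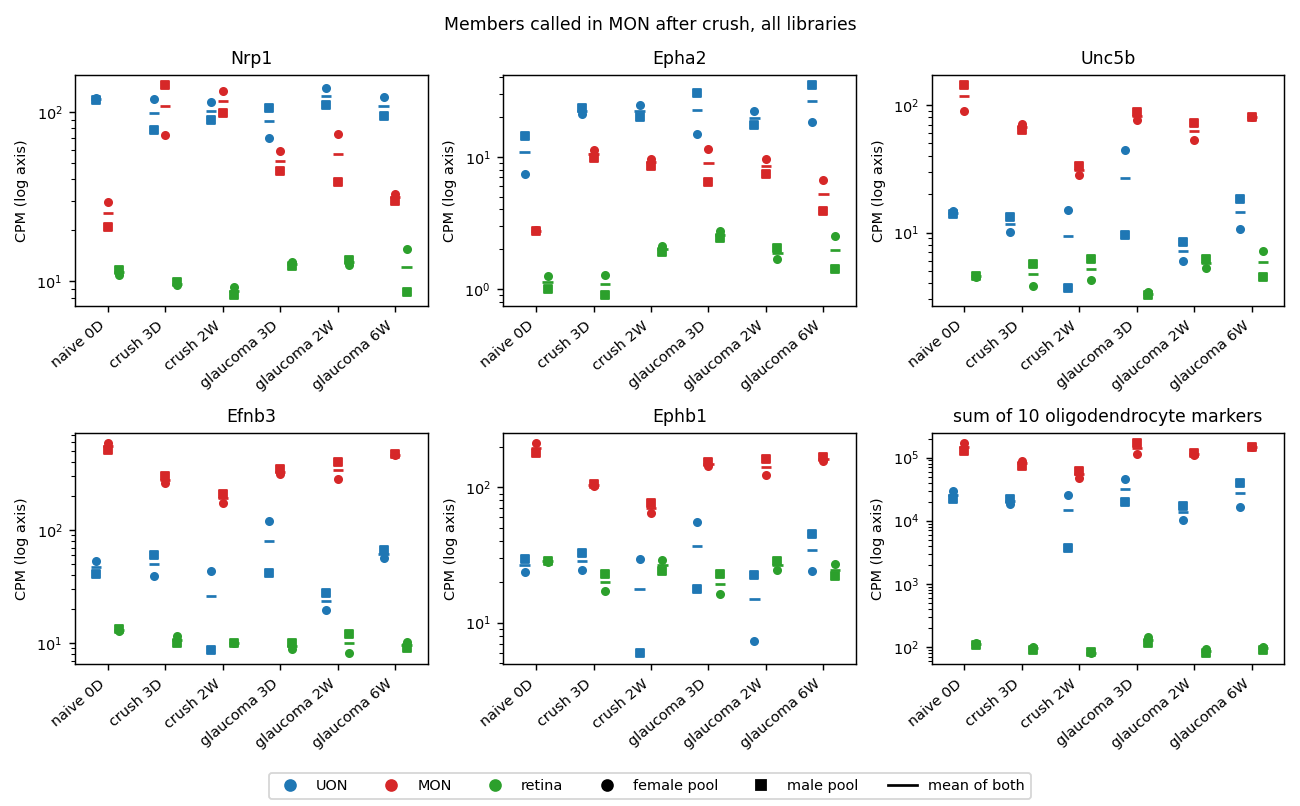
CPM on a log axis of the 5 members called in MON after crush and the sum of 10 oligodendrocyte markers, in all 36 libraries. Circles are female pools, squares male pools and dashes their mean, for UON (blue), MON (red) and retina (green). In MON, Nrp1 and Epha2 lie above both naïve libraries at both crush times, and Efnb3, Ephb1, Unc5b and the marker sum step down from naïve to 3D to 2W.

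In UON, none of 67 members was called after crush by edgeR. At 3D no gene at all was called (0%), 3 members had an unadjusted p under 0.05 (3.07% of all genes) and DESeq2 called 0 (0.56% of all genes). At 2W 0.0281% of 21368 genes were called, 11 members had an unadjusted p under 0.05 (9.27% of all genes), 10 of them lower after crush, and DESeq2 called 3 (Robo1, Slit2 and Sema3g; 1.37% of all genes). Slit2 had 576 and 406 CPM in naïve UON and 223 and 124 at 2W (-1.57, SE 0.38, edgeR adjusted p = 0.464), and Robo1, its receptor, had 63.4 and 53.9 and then 28.7 and 9.02 (-1.80, SE 0.47, edgeR adjusted p = 0.48). In both the male library, which stands apart in its markers, was the lower. Without it the changes were -1.69 for Slit2 (SE 0.53, edgeR adjusted p = 0.547) and -1.09 for Robo1 (SE 0.39, edgeR adjusted p = 0.607), and the DESeq2 calls were not refitted without it. Nrp1, raised in MON, had 120 and 117 CPM in naïve UON, 119 and 78.6 at 3D and 114 and 89.2 at 2W. Epha2 had 7.39 and 14.4 in naïve UON, and each of the 10 injured UON libraries was above both, from 14.8 to 34.8 CPM. Its log2 changes were 1.07 and 1.08 after crush and 1.06, 1.01 and 1.28 at glaucoma 3D, 2W and 6W, with the same 2 naïve libraries in each, and edgeR adjusted p was never under 0.05.

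In retina, no member was called after crush either. At 3D 0.0221% of 22671 genes were called, 6 members had an unadjusted p under 0.05 (6.34% of all genes) and DESeq2 called 0 (0.338%). At 2W 0.313% of genes were called, 12 members had an unadjusted p under 0.05 (8.99% of all genes), 11 of them lower after crush, and DESeq2 called 0 (0.867%). Sema6b, a transmembrane semaphorin that binds A-type plexins, had 7.97 and 8.45 CPM in naïve retina and 3.21 and 4.39 at 2W (-1.17, SE 0.27, edgeR adjusted p = 0.216). Dcc went from 24.5 and 23.6 to 15.7 and 16.3 CPM (-0.62, SE 0.17, adjusted p = 0.299). The 10 RGC markers summed to 1160 and 1070 CPM in naïve retina, 620 and 673 at 3D and 153 and 133 at 2W, and their part in these values was not tested.

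Glaucoma gave no called member in any tissue. In MON 0% of 22960 genes were called at 3D, 2W or 6W by edgeR. Of 67 members 7, 12 and 3 had an unadjusted p under 0.05 at these times, against 8.07%, 8.78% and 4.91% of all genes. DESeq2 called 3 (Epha2, Nrp1 and Sema6c), 2 (Epha2 and Nrp1) and 0, against 1.09%, 1.26% and 0.165% of all genes. Nrp1 had 58.5 and 44.7 CPM at 3D, 74.1 and 38.8 at 2W and 33 and 30 at 6W, all above the naïve 29.4 and 21. Its change at 3D was 2-fold (SE 0.25 on the log2 scale, edgeR adjusted p = 0.414) and its log2 change at 2W was 1.11 (SE 0.25, edgeR adjusted p = 0.298). Epha2 had 11.4 and 6.44, then 9.56 and 7.36, then 6.63 and 3.89 CPM, against 2.78 and 2.76 in naïve MON, so that the 10 injured MON libraries of both models all lay above the naïve ones. Levels of Efnb3 and Unc5b lay between those of naïve and crush 2W libraries: Efnb3 had 316 and 344, 282 and 399, and 461 and 471 CPM at the 3 times, and Unc5b had 76.6 and 88.5, 53.2 and 72.7, and 80.7 and 80. The summed oligodendrocyte markers in these MON libraries were between 109000 and 168000 CPM.

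In UON 0% of 22438 genes were called at each glaucoma time. Of 68 members 5, 3 and 2 had an unadjusted p under 0.05 at 3D, 2W and 6W (3.87%, 3.57% and 2.01% of all genes), and DESeq2 called 0 at each (0.325%, 0.191% and 0.0831% of all genes). The member of smallest p was Ephb2 at 3D, an EphB receptor, with 52.6 and 52.8 CPM in naïve UON and 15.3 and 32.6 after injection (-1.17, SE 0.34, edgeR adjusted p = 1), the 15.3 being that of the library with the highest oligodendrocyte sum. Without that library the change was -0.68 (SE 0.28, edgeR adjusted p = 1). In retina 0.00429%, 0% and 0.00858% of 23301 genes were called at 3D, 2W and 6W, 9, 3 and 1 of 67 members had an unadjusted p under 0.05 (6.09%, 6.29% and 5.67% of all genes), and DESeq2 called 1 (Sema6b at 3D), 0 and 0 (0.409%, 0.253% and 0.292% of all genes). Sema6b had 2.71 and 3.79 CPM at 3D, 5.23 and 9.85 at 2W and 4.78 and 5.46 at 6W, against 7.97 and 8.45 in naïve retina (-1.36 at 3D, SE 0.30, edgeR adjusted p = 0.484). Its 3D libraries were the lowest, and the 2W male library was above both naïve ones.

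**Figure D5:**
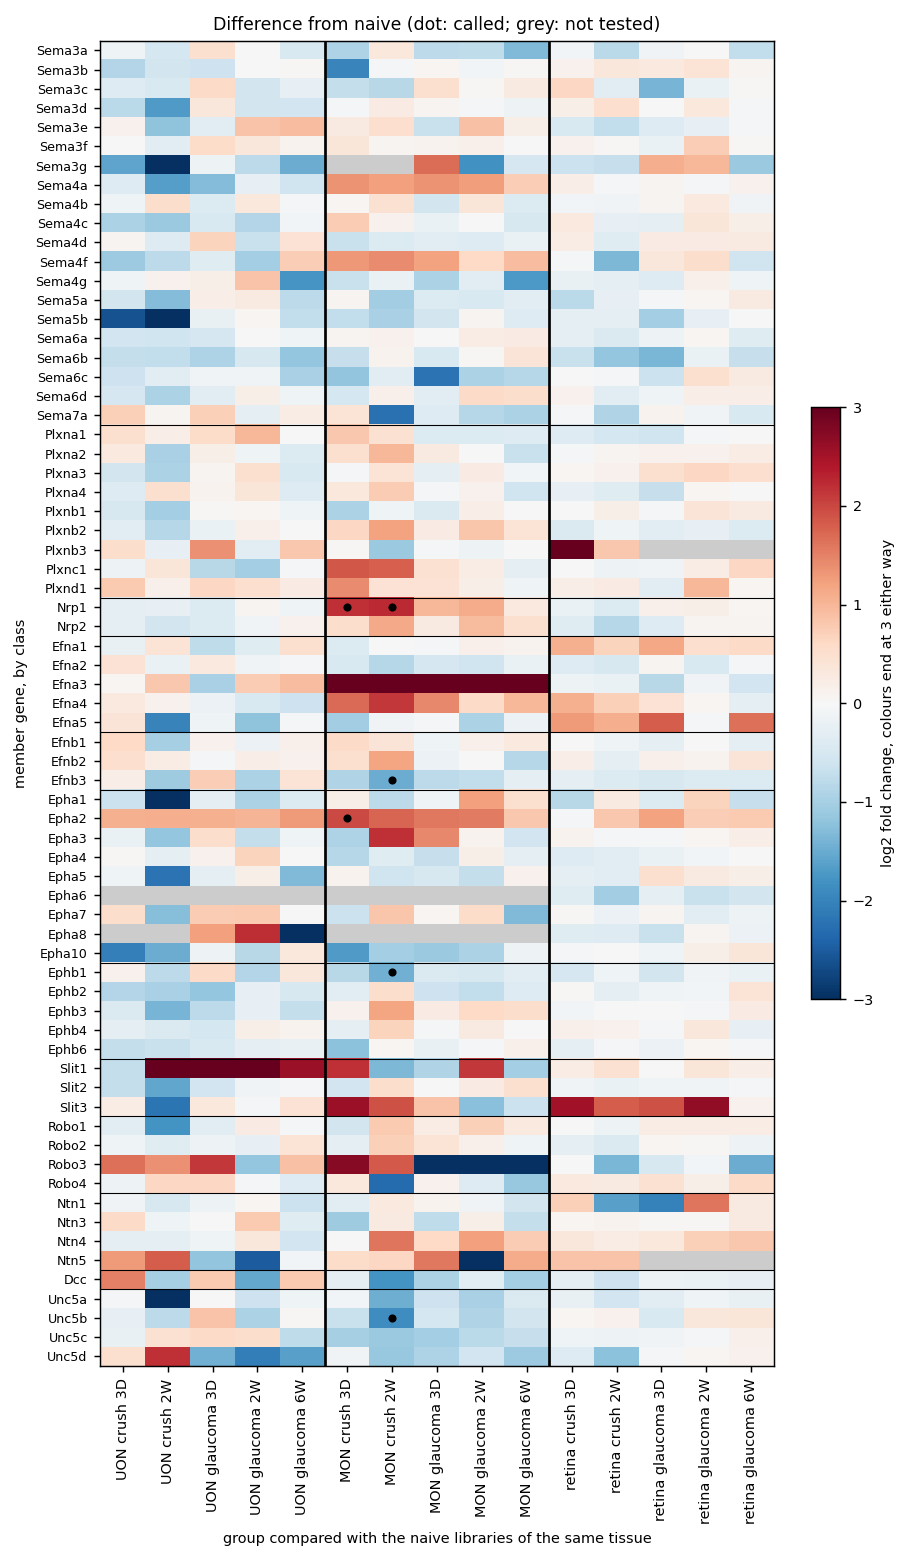
Log2 fold change from the naïve libraries of the same tissue for each member (rows) and each injury and time (columns), with colours ending at 3 in either direction. Dots mark the 6 calls, all in MON after crush, and grey cells were not tested. Efna3 in MON is dark red because both naïve libraries had no count.

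Whether the response to injury differed between UON and MON was tested as an interaction, with sex as a term. The pairing of UON and MON libraries from the same pool was not used in this test. After crush, edgeR called no member at 3D (0.012% of 25011 genes called) or 2W (0%), with 6 and 15 of 67 members at an unadjusted p under 0.05 (6.93% and 10.9% of all genes). DESeq2, which called 0.677% and 1.44% of all genes, called 2 at 3D (Efna3 and Nrp1) and 6 at 2W (Epha3, Nrp1, Nrp2, Plxnb2, Robo1 and Sema4a). For Nrp1 the change in UON was lower than that in MON by 2.45 on the log2 scale at 3D (SE 0.51, edgeR adjusted p = 0.261) and by 2.47 at 2W (SE 0.50, edgeR adjusted p = 0.146). For Plxnb2 at 2W the difference was -2.06 (SE 0.39, adjusted p = 0.146). Without the female crush 2W pool, edgeR called 17 members at 2W, a fit that rests on the male pool, whose UON library stands apart. After glaucoma no member was called at 3D, 2W or 6W (0% of 25807 genes at each), 8, 4 and 3 of 69 members had an unadjusted p under 0.05 (5.86%, 6.18% and 3.1% of all genes), and DESeq2 called 0 at each (0.138%, 0.276% and 0.0711%).

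Crush and glaucoma were also set against each other at matched times, without the naïve libraries in the contrast. In MON edgeR called no member at 3D (0.0162% of 24738 genes called) or 2W (0.0485%), 8 and 15 of 67 members had an unadjusted p under 0.05 (10.4% and 7.51% of all genes), and DESeq2 called 1 (Sema3b) and 2 (Dcc and Ephb2; 1.33% and 0.857% of all genes). Dcc had 4.41 and 3.52 CPM at crush 2W and 10.9 and 11.7 at glaucoma 2W, without overlap (-1.51, SE 0.43, edgeR adjusted p = 0.408), and Ephb1 had 64.9 and 76.8 against 123 and 162 (-0.99, SE 0.20, edgeR adjusted p = 0.255). In UON edgeR called none at 3D (0% of 23927 genes) or 2W (0.0418%), 1 and 11 of 68 members had an unadjusted p under 0.05 (1.07% and 10.2% of all genes), and DESeq2 called 0 and 2 (Sema5a and Ntn5; 0.0286% and 1.28% of all genes). Sema5a had 11.1 and 7.64 CPM at crush 2W and 38.4 and 19.2 at glaucoma 2W (-1.58, SE 0.37, edgeR adjusted p = 0.315). Ntn5 had at most 2.66 CPM in these libraries and shares 23.4% of its exon bases with Sec1 on the other strand.

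Other genes of the pathway were taken from lists. Of 30 further guidance cues, co-receptors and growth inhibitors, 7 were called higher in naïve UON (4.83% of all genes) and 5 higher in naïve MON (4.8%), the largest differences being those of Dscam, a netrin co-receptor (-4.19), Cntn2, an adhesion molecule of the juxtaparanode (-3.51), and the myelin inhibitors Omg (-3.41) and Mag (-3.17). Over the 12 pools 7 were higher (6.73% of all genes) and 8 lower in UON (9.88%), and none was called after crush or glaucoma in any tissue by edgeR. Of 47 intracellular guidance signaling genes, 6 were higher and 4 lower in naïve UON, beside the same 4.83% and 4.8% of all genes, led by Chn2, a Rac-inactivating protein (-3.21), Pak3 (-1.89), Ngef, an exchange factor downstream of EphA receptors (1.88), and Mical2 (1.85). In MON the semaphorin-linked kinase gene Fes rose at both crush times (2.15, SE 0.37, and 2.04, SE 0.37, edgeR adjusted p = 0.0245 and 0.0391), Fyn fell at 3D (-1.60, SE 0.32, adjusted p = 0.0379) and Mical1, an oxidase downstream of plexins, rose at 2W (1.62, SE 0.28, adjusted p = 0.0353). Srgap1, a Slit-Robo effector, fell in retina at crush 2W (-2.61, SE 0.27, edgeR adjusted p = 0.0221).

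Single libraries with much lower values than the rest of their tissue were found for some members. Among members with a tissue median of at least 5 CPM, 35 values were under 1/3 of that median, and in 8 of these, from 6 members, the transcript that held at least 50% of the tissue's counts had no count. Efna5, an ephrin-A ligand of retinal mapping, had 0.466 CPM in UON crush 2W male and 1.03 in UON glaucoma 2W male, against a UON median of 14.6, and 0.628 in retina glaucoma 2W male against a retina median of 12, with no count of Efna5-201 in these 3 libraries. Naïve male retina, at 1.11 CPM, was low as well. Unc5d had 3.09 CPM in retina crush 2W female, against a median of 17, and Sema5a had 6.79 in retina crush 3D male, where the other 11 retina libraries lay between 21.9 and 35.2. In the conditions of these 4 low male libraries the female library of the same tissue had between 11.8 and 15.2 CPM of Efna5. The naïve male MON value of Sema4f (2.28 CPM) is also among the 35, and the naïve call of Sema4f rests on it.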

How the data were processed

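Libraries were made with an ultra-low input kit and sequenced as paired ends, per the methods. The authors aligned reads with HISAT2 2.2.1 to GRCm38 and assembled them with StringTie 1.3.0 on a Gencode annotation, with new transcripts reported too. The deposited gene and transcript tables hold estimated counts, and the authors deposited FPKM and TPM values per gene from StringTie. Slightly negative values (40 of 3995968 FPKM and TPM values) were replaced by 0. The strand setting is not given in the sources used here.

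Estimated counts were rounded, filtered with filterByExpr (minimum count 10, minimum total 15), scaled by TMM and tested with edgeR 4.0.16 (quasi-likelihood F test) in R 4.3.3 over all genes. Sex was a term in comparisons with naïve libraries, and the pool, whose animals gave all 3 tissues, was the block over the 12 pools. Each SE was taken as the absolute log2 change divided by the square root of its F statistic, so it is not an estimate apart from that test. Calls needed a Benjamini-Hochberg adjusted p under 0.05 together with an absolute log2 change above 1. DESeq2 1.42.0, its scaling, no filter, no block and leaving out each library were the alternatives. DESeq2 was run on every gene with any count, so its shares of all genes have a larger base than those of edgeR. Tested on simulated data with 200 changed genes, the fit recovered 86% of them for naïve UON against MON (23685 genes). For MON crush 3D against naïve (19988 genes) it recovered 72.5%. Each changed gene was set to differ by 2 on the log2 scale, and was drawn only from genes above a floor of mean CPM. Recovery for genes of lower level, such as Sema3g and Efna3, was therefore not tested. Recovery of smaller differences, and recovery in the other comparisons, was not tested. Depth was 16.2 to 78.1 M counts per library. Within a tissue, p-values measure the spread between pools of 2 mice. Between tissues, they measure how the difference within a pool varied, over the 2 naïve pools or over the 12 pools of all conditions together. The test of a difference in response had sex as its only block and did not use the pairing of UON and MON libraries. Members and gene lists were chosen with earlier results of these data known. Library values are given for all called members in injury comparisons. Library values or ranges are given for the 6 largest called differences in each direction between UON and MON and, over the 12 pools, between nerve and retina. Naïve nerve against retina is given by counts. Other members were named after their values were seen.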

Additional observations from a re-analysis of the deposited data

How the results depend on the processing

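No member called by edgeR in the main fit changed direction under an alternative. The direction of members not called was not compared. With DESeq2 in place of edgeR the called members were 7 in MON crush 3D and 15 in 2W, 3 in MON glaucoma 3D and 2 in 2W, 3 in UON crush 2W, 1 in retina glaucoma 3D, 2 and 6 for the difference in response to crush at 3D and 2W, 1 and 2 for MON crush against glaucoma at 3D and 2W, and 2 for UON crush against glaucoma at 2W. With no filter on low counts they were 7 in MON crush 3D and 8 in 2W, 1 for MON crush against glaucoma at 3D, and 2 and 7 for the difference in response to crush at 3D and 2W. With DESeq2's scaling 1 member was called in MON crush 3D, Epha2 being lost. Leaving out 1 library or pool gave 20 to 28 members in naïve UON against MON, 40 to 45 in naïve UON against retina, 34 to 40 in naïve MON against retina, and 36 to 39, 51 to 54 and 48 to 54 for the same contrasts over the 12 pools. It gave 0 to 7 in MON crush 3D (0 without either naïve or the male crush library, 7 without the female crush library) and 0 to 6 in 2W (0 without either naïve library, 6 without either crush library), 0 to 2 for MON crush against glaucoma at 3D (2 without the female crush library), 0 to 1 for UON crush against glaucoma at 2W and for retina crush at 3D and 2W, and 0 to 17 for the difference in response to crush at 2W (17 without the female and 1 without the male crush pool). The other comparisons stayed at 0. The cause of these moves was not tested. Without the replicate block the 12 pools gave 38 members for UON against MON and, with sex dropped, the naïve libraries 25, MON crush 3D 3 and MON crush 2W 6, and no count of calls moved by over 1.5 times. Alternatives chosen after seeing the data gave 37 (10 injured pools) and 39 (without the pools crush 2W male and glaucoma 3D female). With 1 pool per sex and condition, injury changes rest on 2 libraries against 2, and counting error is largest for members of few counts such as Sema3g and Efna3.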
